A study of Mus musculus with 6 samples.

Results

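Malat1 and Neat1 are neighbouring genes for long noncoding RNAs that stay in the cell nucleus. Both were taken by name from the gene tables of a single-cell study of mouse small intestinal epithelium, where they are 2 of the 5674 genes measured in both jejunal regions (6996 in either). Both were chosen by their measured levels, since Malat1 led a cluster, together with the villus-top gene Apoa4, in an earlier clustering of the same cells. Their levels by cell class, by depth and by villus position are therefore given here as a description and without a test. Each was measured in 2043 cells of 6 samples. A level is given as CP10K, the number of unique molecular identifiers (UMIs, each standing for 1 captured RNA molecule) per 10000 UMIs of the cell.

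Malat1 RNA is one of the most abundant nuclear RNAs of mammalian cells and collects in nuclear speckles, bodies rich in splicing factors. Its primary transcript is cut by RNase P into the long nuclear RNA and a small tRNA-like RNA, mascRNA, that leaves the nucleus, and the new end of the long RNA is protected by a triple helix instead of a poly(A) tail. Neat1 is the architectural RNA of paraspeckles, a separate kind of nuclear body. Its short isoform is polyadenylated, whereas its long isoform, the one that builds paraspeckles, ends in a triple helix like that of Malat1. In single-cell data a high share of such nuclear RNAs is widely used as one sign of cells that have lost cytoplasm. Whether that applies to these cells was not tested.

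The samples are the anterior jejunum (piece 3 of 12 equal pieces of the small intestine) and the posterior jejunum (piece 7) of 3 mice, so each region has 3 replicates and each mouse gave both. The mice were 120 days old and of mixed CD-1:C57BL/6 background, and no genotype or sex is stated in the labels. Cells of villi and crypts were combined 1:1, live EpCAM+ cells (EpCAM marks epithelium, and dead cells were gated out by DAPI) were sorted singly into plates, and libraries were made by MARS-seq, a plate method that counts UMIs. Nothing in the labels describes a treatment.

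The tables held 2043 cells of 3348 single-cell wells, 198 to 568 cells per sample, and no cell name occurred in more than 1 library (0 shared). The median depth was 2741 to 8425.5 UMIs per cell. For mice 2 and 3 each sample was 1 plate, so plate and sample cannot be told apart. The cells formed 11 clusters, built without Malat1 and Neat1, and by their markers these were enterocyte-like (absorptive cells, 851 cells), goblet-like (mucus-secreting, 655), crypt progenitor-like (220), enteroendocrine-like (hormone-secreting, 114) and tuft-like (chemosensory, 39). A cluster of 164 cells with a median of 970.5 UMIs stayed unnamed, since Paneth genes (AY761184, Defa29, Gm14851) and Gip stood beside the enterocyte gene Lct among its leading genes. No cluster matched the marker lists of T cells, B cells, myeloid cells or stroma best. In 1 amplification pool of anterior mouse 1 (84 cells) and 1 of posterior mouse 1 (95 cells) Malat1 stood apart from the other pools. The depth and position contrasts of enterocyte-like cells are given with and without each below, a choice made after values were seen.

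Both genes lie on the minus strand of chromosome 19 of GRCm38, in the GENCODE vM21 annotation. Malat1 (ENSMUSG00000092341) spans chr19:5795690-5802672, 6983 bp, and its transcript Malat1-201 has 1 exon. Neat1 (ENSMUSG00000092274) spans chr19:5824708-5845478, 20771 bp, with 22035 bp between the genes. Neat1-201, the long isoform, is 1 exon of 20771 nt, and Neat1-202, the short one, has 2 exons and 3004 nt. The shared biology of the RNAs can be read in their ends, which are shown here because MARS-seq primes on poly(A). The A-rich stretch of Malat1 lies before its annotated end, whereas that of long Neat1 is at its annotated end. The first pair is the region of the Malat1 triple helix (chr19:5795970-5796049), whose last letters lie inside the mascRNA gene of RefSeq (chr19:5795924-5795981), and the end of long Neat1 (chr19:5824708-5824767). Capitals mark the stretches of at least 10 letters that the pair shares.
Malat1 triple-helix region: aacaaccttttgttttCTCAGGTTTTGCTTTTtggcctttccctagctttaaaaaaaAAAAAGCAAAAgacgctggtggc
Neat1 long isoform end: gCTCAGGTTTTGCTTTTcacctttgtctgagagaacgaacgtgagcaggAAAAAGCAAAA
The second pair is the annotated end of Malat1 (chr19:5795690-5795749) and the end of short Neat1 (chr19:5842307-5842366), with the polyadenylation hexamer AATAAA in capitals.
Malat1 annotated end: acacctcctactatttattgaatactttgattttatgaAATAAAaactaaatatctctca
Neat1 short isoform end: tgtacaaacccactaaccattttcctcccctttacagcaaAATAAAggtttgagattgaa
The first pair shared a U-rich stretch of 16 letters, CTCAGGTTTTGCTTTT, and an A-rich one of 11, AAAAAGCAAAA. The hexamer began 22 nt before the annotated Malat1 end and 20 nt before the short Neat1 end. The A-rich run of Malat1 began 310 nt before its annotated end. Which of these ends the UMIs came from, and whether counting used strand, is not stated in the labels or files used, so the isoforms of Neat1 could not be separated.

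Malat1 was found in nearly every cell and Neat1 in fewer. Malat1 gave 51104 UMIs and was at 0 in 128 cells (6.27%), and Neat1 gave 5199 UMIs and was at 0 in 1063 cells (52.0%). The mean Malat1 level was 104, 69.4 and 115 CP10K in anterior mice 1, 2 and 3, and 132, 116 and 132 CP10K in the posterior samples of the same mice. The medians of the same samples were far lower, at 45.8, 4.76 and 32.6 CP10K anteriorly and 74.0, 24.2 and 10.1 CP10K posteriorly. The highest single cell of a sample had 430 to 1526 CP10K, so the means were carried by a part of the cells. Mean Neat1 was 9.71, 7.85 and 12.7 CP10K anteriorly and 14.3, 10.9 and 10.02 CP10K posteriorly, and its median was at most 1.69 CP10K in any sample. Within samples the levels of Malat1 and Neat1 moved together across cells, with Spearman coefficients of 0.301 to 0.498 (median 0.432, over 198 to 568 cells that share a library, and both levels have the cell's depth in their denominator).

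The level of Malat1 fell into a high and a low group of cells that tracked depth. Cells under 1000 UMIs had a median Malat1 of 168 CP10K, cells of 1000 to 2000 UMIs 182, and cells of 2000 to 4000 UMIs 133. The median was 13.2 CP10K in cells of 4000 to 8000 UMIs, 4.07 in cells of 8000 to 16000, and 4.33 above 16000. The step lay between 2000 and 8000 UMIs, and the levels on either side of it were flat by comparison. Mean Neat1 was also higher in the shallower bins, with 17.5, 22.1, 15.5, 5.44, 1.11 and 0.719 CP10K from the shallowest to the deepest bin. The bins held 212, 516, 357, 310, 484 and 164 cells. Across the cells of a sample the Spearman coefficient of Malat1 CP10K with UMIs was -0.760 to -0.547 (median -0.683), and that of Neat1 was -0.307 to -0.148. Depth is the denominator of CP10K, so these are descriptions of shared quantities.

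**Figure D1:**
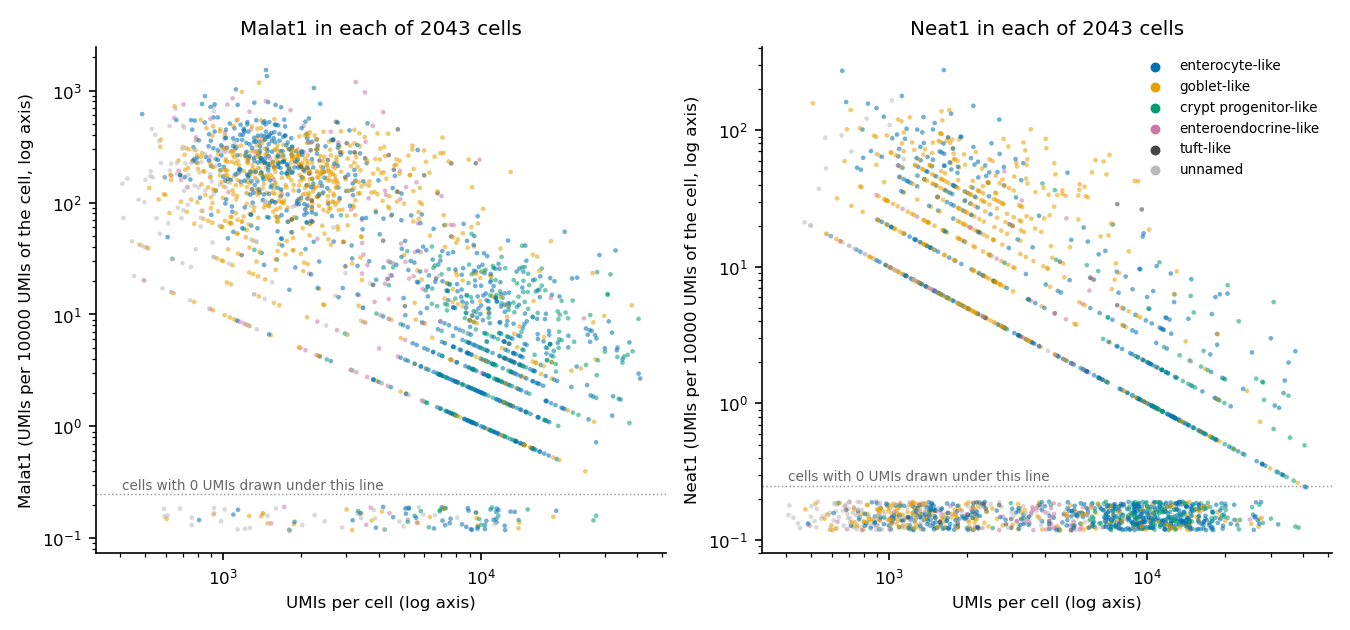
Malat1 and Neat1 (CP10K, log axis) of each of the 2043 cells against the cell's total UMIs (log axis). Malat1 forms an upper group of mainly shallow cells and a lower group of mainly deep ones, with bin medians of 133 to 182 CP10K below 4000 UMIs and 4.07 to 4.33 CP10K above 8000.

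With a boundary of 30 CP10K and a depth of 5000 UMIs, both chosen after the values were seen, 966 of 1164 shallower cells (83.0%) and 94 of 879 deeper cells (10.7%) were at or above the boundary. The shares in single samples were 78.0 to 95.9% of the shallower cells and 1.65 to 24.2% of the deeper cells, so the samples did not overlap. The highest deep share, that of posterior mouse 1, was 14.3% (20 of 140 cells) without 1 of its pools, described with the pools below. Cells within 2-fold of the boundary numbered 138 of the shallower and 156 of the deeper. The split was found in both large classes: 330 of 368 shallower enterocyte-like cells (89.7%) and 30 of 483 deeper ones (6.21%) were at or above it, and 460 of 513 shallower goblet-like cells (89.7%) and 44 of 142 deeper ones (31.0%). Among crypt progenitor-like cells, nearly all of them deep, 5 of 16 shallower and 6 of 204 deeper cells were.

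The number of molecules, which has no denominator, also differed between the groups of cells. Cells of 2000 to 4000 UMIs carried on average 42.9 Malat1 UMIs, and cells of 8000 to 16000 UMIs carried 11.5. The means of the remaining bins were 16.5 under 1000 UMIs, 30.0 from 1000 to 2000, 27.7 from 4000 to 8000 and 16.3 above 16000. Mean Neat1 was highest in the same bin, with 1.36, 3.23, 4.16, 2.99, 1.17 and 1.62 UMIs per cell. From 2000 to 16000 UMIs the means of both nuclear RNAs thus fell from bin to bin while the captured RNA in all rose. In enterocyte-like cells the fall was from 46.8 Malat1 UMIs (2000 to 4000) to 8.10 (8000 to 16000). In goblet-like cells the highest mean, 64.9 Malat1 UMIs, was at 4000 to 8000 UMIs, and it was 21.6 at 8000 to 16000.

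**Figure D2:**
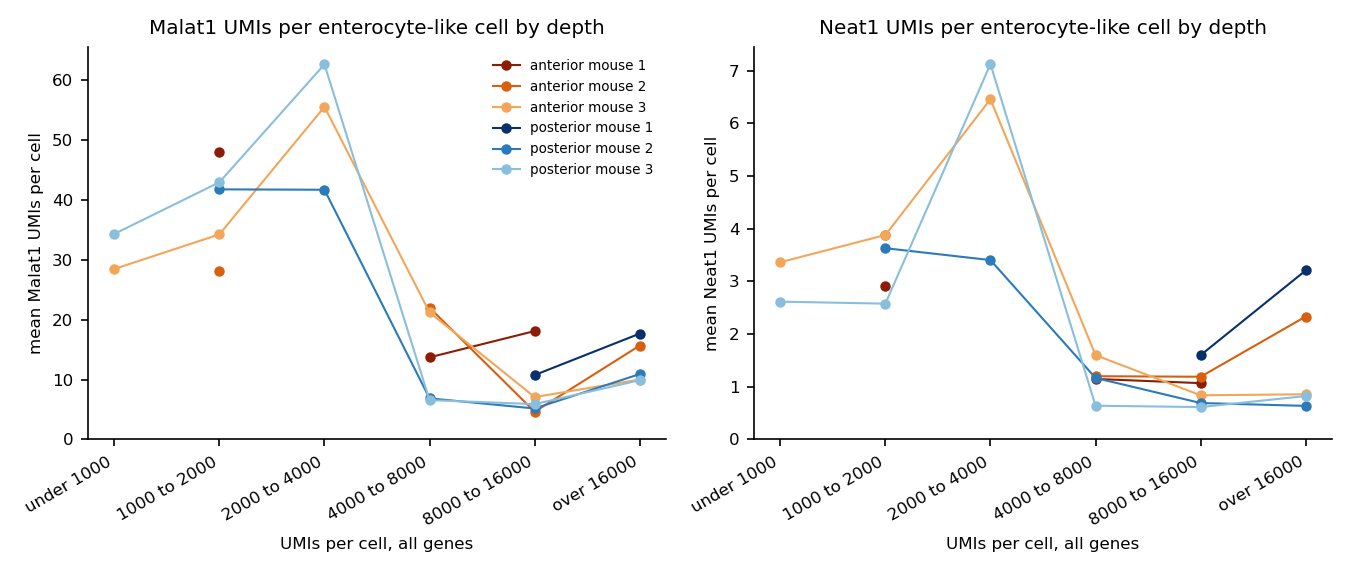
Mean UMIs of Malat1 and of Neat1 per enterocyte-like cell by depth bin, with a line for each sample. Malat1 over all samples was 46.8 UMIs per cell at 2000 to 4000 UMIs and 8.10 at 8000 to 16000.

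In enterocyte-like cells, the largest class, Malat1 and Neat1 were lower in the deepest than in the shallowest tercile of the cells of every sample (a tercile being 1 of 3 equal groups of cells ordered by depth). Malat1 of the shallowest and deepest tercile was 179 and 15.04 CP10K in anterior mouse 1, 183 and 3.65 in anterior mouse 2, and 260.0 and 5.08 in anterior mouse 3. In the posterior samples it was 48.2 and 6.55 CP10K in mouse 1, 283 and 4.89 in mouse 2, and 341 and 4.74 in mouse 3. The terciles did not overlap in Malat1: the lowest shallow value, 48.2 CP10K in posterior mouse 1, was above the highest deep one. The mean was 216 ± 103 against 6.66 ± 4.21 CP10K (SD, n = 6). The log2 change was -4.92 (moderated SE of limma 0.34, SD over the samples 1.36), the lowest of all genes tested, a rank given as a description. For Neat1 the terciles were 9.57 and 1.01, 20.4 and 0.864, and 31.9 and 0.718 CP10K anteriorly, and 1.96 and 1.33, 25.9 and 0.608, and 22.2 and 0.364 CP10K posteriorly. Posterior mouse 1 again had the smallest drop. Its shallowest tercile had a median of 7070 UMIs, where that of the other samples had at most 2377.

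The log2 change of Neat1 was -3.87 (moderated SE 0.40, SD over the samples 1.85), and both RNAs were lower in 6 of 6 samples. No p-value is given for either, because Malat1 was chosen for leading a cluster of these same cells, and cluster, depth and position overlap: of the 4 enterocyte-like clusters found here the shallow one also had the highest Malat1, a median of 207 CP10K, and the largest share of upper-villus cells (76.3%, against 18.3 to 43.0% in the others). By limma across all genes, with the sample as block and a threshold of 0.05 on the adjusted p, 19.9% of 4947 genes were called, 423 higher (8.55%) and 561 lower (11.3%), and the median log2 change of all genes was 0.12. In UMIs per cell the same terciles gave Malat1 30.9 and 21.3, 26.8 and 7.28, and 32.2 and 7.15 anteriorly, and 11.1 and 17.2, 41.4 and 5.84, and 41.0 and 6.86 posteriorly. Malat1 UMIs were thus lower in the deepest tercile in 5 of 6 samples, posterior mouse 1 being the exception (mean log2 ratio -1.56, SD 1.33). Neat1 UMIs were likewise lower in 5 of 6 (mean log2 ratio -1.16, SD 1.38). The shallow enterocyte-like cells were mostly 1 cluster (358 cells, median 1601 UMIs) and the deep ones the 3 others (medians 9364.5 to 11358), so depth and cluster move together within the class.

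In goblet-like cells only 3 samples had enough cells to be split. Malat1 of the shallowest and deepest tercile was 161 and 78.0 CP10K in anterior mouse 1, 141 and 1.59 in anterior mouse 2 (12 and 11 cells), and 197 and 140 in posterior mouse 1. Neat1 was 21.0 and 10.9, 25.8 and 0.0479, and 23.4 and 19.3 CP10K in the same samples. Both were lower in the deepest tercile in 3 of 3, by far the most in anterior mouse 2. The log2 change was -2.61 for Malat1 and -2.64 for Neat1, where limma called 0.998% of 4411 genes, 0.703% lower and 0.295% higher. Without anterior mouse 2 it was -0.77 for Malat1 and -0.60 for Neat1, so most of the size came from that sample. Malat1 UMIs per goblet-like cell went from 19.7 to 30.3, from 15.4 to 2.73 and from 19.5 to 73.5, higher in the deeper cells in 2 of 3 samples.

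The genes that moved with Malat1 and Neat1 over depth in enterocyte-like cells included many for nuclear speckle proteins. Of 29 such genes tested 16 fell from the shallowest to the deepest tercile and 0 rose, with a median log2 change of -1.33 against 0.12 over all genes. Srrm2 and Son, which encode the scaffold proteins of speckles, fell by 3.47 and 2.42 on the log2 scale (limma adjusted p for Son = 2.70e-05). Srrm2 fell from 16.8 to 1.05 CP10K. No p-value is given for Srrm2, since it is also among the genes most like Malat1 and Neat1 in these same cells. The splicing-factor genes Rbm25 and Acin1 fell by 2.62 and 2.45. Of 12 genes for paraspeckle proteins, the partners of Neat1, 1 fell and 0 rose, which is near the share of all genes called lower, 11.3%. The 1 that fell was Smarca4, a chromatin remodeller, at log2 -1.31 (limma adjusted p = 0.0463). Sfpq, which encodes a core paraspeckle protein, did not pass, with a log2 change of -0.21 (limma adjusted p = 0.775). The speckle list thus had a median change well below that of all genes, and the paraspeckle list, at -0.32, a median closer to it.

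Nuclear-retained mRNAs and other long noncoding RNAs were tested for the same contrast. Where the RNAs of the second list lie in these cells was not examined. Of 3 nuclear-retained mRNAs Chka (choline kinase) fell from 13.3 to 0.797 CP10K and Mlxipl (the glucose-responsive factor ChREBP) by 1.60 on the log2 scale, while Nlrp6, an inflammasome sensor, did not pass, at a log2 change of 0.61 (limma adjusted p = 0.259). Of 11 other long noncoding RNAs 4 fell and 0 rose, with a median of 0.18 and 6 of them above 0. Gm26917 fell from 68.9 to 14.9 CP10K and Tug1, partly nuclear, from 5.00 to 1.23. Genes of cytoplasmic machinery went the other way. Of 82 cytosolic ribosomal protein genes 25 were higher in the deepest tercile and 0 lower. Of 76 nuclear-encoded genes of the respiratory chain 49 were higher and 0 lower, and the list medians were 0.79 and 1.13. Of all 4947 genes tested 8.55% were called higher and 11.3% lower, the shares to set beside each count of this contrast. Summed, the respiratory genes had 396 CP10K in the shallowest and 794 in the deepest tercile, the ribosomal protein genes 612 and 910, and the speckle genes 68.4 and 15.2. Posterior mouse 1 went the other way in 2 of these sums, from 627 to 598 CP10K for the respiratory and from 1499 to 1321 for the ribosomal protein genes. Of the landmark genes of villus position used below, 4 of 6 of the top fell and 6 of 6 of the bottom rose with depth. The ribosomal and respiratory lists were added after values were seen. The tables hold 0 mitochondrially encoded genes, so the mitochondrial share, a common measure of cell integrity, could not be set beside Malat1.

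**Figure D3:**
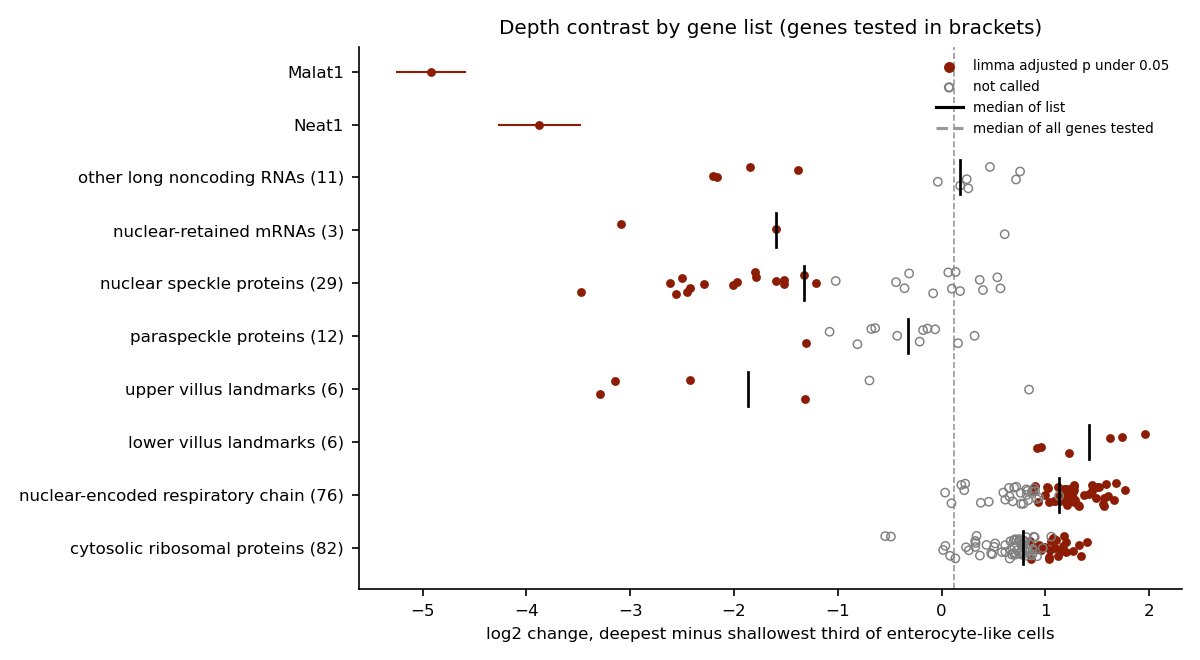
Log2 change from the shallowest to the deepest tercile of enterocyte-like cells for Malat1, Neat1 and the genes of each list, with a point for each gene. Filled points had a limma adjusted p under 0.05. Black bars mark list medians and the dashed line the median of all genes tested. The list median was -1.33 for nuclear speckle, 0.79 for ribosomal protein and 1.13 for respiratory chain genes.

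Enterocyte-like cells on each side of 5000 UMIs were then split at the 30 CP10K boundary of Malat1, as a description without a test. Among the 368 cells under 5000 UMIs, the 330 with high Malat1 had a median speckle sum of 57.3 CP10K against 25.0 in the 38 others, and a mean Neat1 of 24.0 against 4.39 CP10K. Their respiratory sum was 295 against 441 CP10K, and their ribosomal protein sum was 271 against 260.1. The depths of these cells still differed, with medians of 1541.5 and 3438.5 UMIs. In the 3 samples with at least 5 cells on each side, the speckle sum was higher in high-Malat1 cells in 3, the respiratory sum lower in 2, and the ribosomal sum lower in 1. At 5000 UMIs and above, the 30 cells with high Malat1 had more of the speckle genes (26.4 against 12.2 CP10K) and of Neat1 (mean 3.59 against 0.864) than the 453 others, and less of the ribosomal (312 against 496) and respiratory genes (598 against 768), each in 3 of 3 samples for the 3 sums. The depths differed here too, with medians of 7604 UMIs in the high-Malat1 cells and 11035 in the others. Among the 3 samples posterior mouse 1 went the other way, with 14769 and 12229 UMIs. So the speckle genes and Neat1 were higher beside high Malat1 on both sides of 5000 UMIs, but the split did not separate Malat1 from depth. The ribosomal protein genes were lower beside it in 3 of 3 samples of the deeper cells and in 1 of 3 of the shallower ones, and the 2 sides were not compared by a test. In shallow goblet-like cells the 460 with high Malat1 had 78.4 CP10K of speckle genes against 26.7 in the 53 others, and a mean Neat1 of 24.0 against 10.1. They had 162 against 194 CP10K of respiratory and 349 against 351 of ribosomal protein genes. Their median depths were 1731 and 1601 UMIs. Of the 198 cells of all classes under 5000 UMIs and under the boundary, 44 came from the pool of anterior mouse 1 that stood apart. These splits were not repeated without it.

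The position of an enterocyte-like cell along the villus was scored by landmark genes, 6 of the villus top (Apoa4, Ada, Krt20, Klf4, Dnase1 and Enpp3) and 6 of the bottom (Reg1, Reg3b, Reg3g, Il18, Ccl25 and Gpx2). Both nuclear RNAs were higher in the upper tercile in every sample. Malat1 of the lower and upper tercile was 21.0 and 173, 20.8 and 127, and 39.2 and 232 CP10K in anterior mice 1 to 3, and 12.1 and 42.4, 32.7 and 206, and 16.3 and 251 CP10K in the posterior samples. The 2 terciles did not overlap in Malat1. Neat1 was 1.47 and 9.74, 1.29 and 16.8, and 6.48 and 24.2 CP10K anteriorly, and 1.28 and 1.502, 3.33 and 17.7, and 0.929 and 17.5 CP10K posteriorly, with the smallest rise again in posterior mouse 1. The log2 difference was 2.76 for Malat1 (moderated SE 0.24, SD over the samples 0.70) and 2.41 for Neat1 (moderated SE 0.36, SD 1.33). With Apoa4 alone as the score it was 1.46 for Malat1 and 1.3045 for Neat1. No p-value is given for either, since Malat1 was chosen for leading a cluster with Apoa4, which is 1 of the landmarks. Of 4907 genes limma called 23.5%, 10.4% higher and 13.1% lower in the upper tercile.

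Position and depth went together in these cells. The median depth was 9819.5 to 12670 UMIs in the lower tercile and 1740 to 9650 in the upper tercile, and the Spearman coefficient of depth with the villus score was -0.548 to -0.158 across the cells of a sample. In UMIs per cell Malat1 was higher in the upper tercile in 6 of 6 samples (mean log2 ratio 1.64, SD 0.86) and Neat1 in 5 of 6. The position contrast was therefore repeated on each side of 5000 UMIs, a division added after values were seen. In cells of at least 5000 UMIs mean Malat1 was 6.66 ± 4.87 CP10K in the lower and 14.3 ± 5.97 CP10K in the upper tercile (SD, n = 6). Its log2 difference was 1.21 (moderated SE 0.27, SD over the samples 0.92, higher in 6 of 6). Neat1 differed by 1.08 on the log2 scale (moderated SE 0.32, SD 0.94, higher in 4 of 6). The medians of Malat1 differed less, with 4.77 and 6.04 CP10K as means over the samples, and in anterior mouse 2 with 2.25 and 2.38 CP10K beside means of 3.07 and 19.1. The higher mean was thus carried by a part of the upper cells. The terciles also still differed in depth, with 12576 and 9200.4 UMIs as means of the sample medians. Limma called 16.3% of 4749 genes there (5.64% higher, 10.7% lower), and only 1 of 29 speckle genes was higher and 1 lower. Below 5000 UMIs 4 samples had enough cells. Malat1 was 196 ± 26.7 CP10K there in the lower and 270 ± 94.9 CP10K in the upper tercile (SD, n = 4). Its log2 difference was 0.40 (moderated SE 0.095, SD over the samples 0.42, higher in 3 of 4). Neat1 had a log2 difference of 0.55 (SD 0.81), and limma called 0.485% of 4327 genes (0.347% higher, 0.139% lower). Without posterior mouse 3 the difference of Malat1 was 0.22. The difference with position was thus 2.76 over all enterocyte-like cells and 1.21 and 0.40 on the 2 sides of the depth boundary, and that between the 2 sides was not tested.

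**Figure D4:**
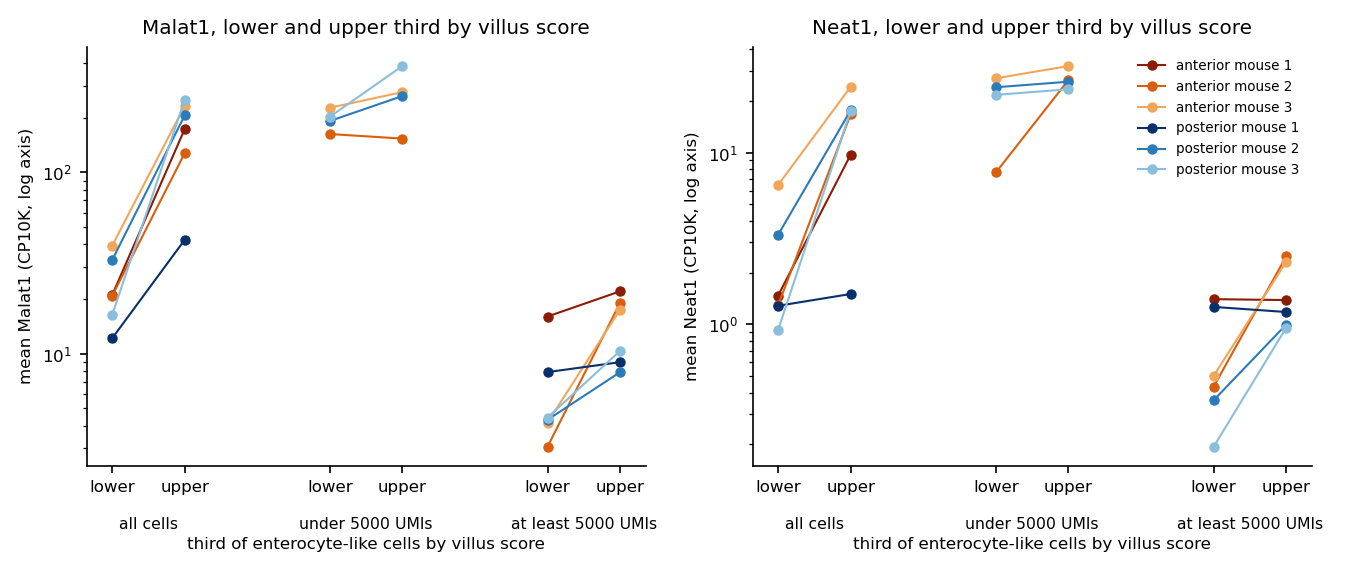
Malat1 and Neat1 (CP10K, log axis) in the lower and upper tercile of enterocyte-like cells by villus score, with each line a sample, for all cells and for cells on either side of 5000 UMIs. Malat1 was higher in the upper tercile in 6 of 6 samples over all cells and at 5000 UMIs or more, and in 3 of 4 below 5000 UMIs.

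Genes for speckle proteins were also higher at the top over cells of all depths. Of 28 speckle genes tested 11 were higher in the upper tercile and 0 lower (median log2 0.55 against -0.11 over all genes), Srrm2 by 1.96 and Son by 1.35. Of all genes 10.4% were called higher and 13.1% lower over cells of all depths. Below 5000 UMIs 0 of 27 were called, where only 0.485% of all genes were, so this 0 says little about speckle genes. Of the 3 nuclear-retained mRNAs 2 were higher, Chka by 2.18 on the log2 scale (limma adjusted p = 0.000121), and Nlrp6, at -0.68, did not pass (limma adjusted p = 0.142). Of the 11 other long noncoding RNAs 4 were higher and 0 lower, Gm26917 by 1.37 (limma adjusted p = 0.000147), with a median of -0.30. Of 12 paraspeckle genes 0 were higher and 0 lower. Of the 82 ribosomal protein genes 75 were lower in the upper tercile and of the 76 respiratory genes 68 were lower. In the cells of at least 5000 UMIs 78 of 81 ribosomal protein genes and 44 of 76 respiratory genes were lower, beside 10.7% of all genes. Below 5000 UMIs 0 of 76 ribosomal protein genes were called, with 72 of them below 0, and 2 of 74 respiratory genes were lower. Only 0.139% of all genes were called lower there.

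By cell class the crypt progenitor-like cells had the lowest Malat1, at 7.65 ± 4.77 CP10K (mean over samples ± SD, n = 6), with 12.6, 3.62 and 6.11 CP10K in anterior mice 1 to 3 and 14.7, 4.22 and 4.64 CP10K posteriorly. Enterocyte-like cells had 95.1 ± 49.0 CP10K (range 21.5 to 143) and goblet-like cells 112 ± 37.8 (range 63.6 to 167), and these neighbours differed by less than their spread. Progenitor-like cells were also the deepest, with a median of 11416 UMIs, and lay below both other classes in mean Malat1 in every sample. By median Malat1 posterior mouse 1 went the other way, with 9.25 CP10K in progenitor-like and 5.00 in enterocyte-like cells. In the unnamed cluster Malat1 was 115 ± 29.8 CP10K (n = 5), within the range of the goblet-like cells. The rarer classes were measured in 2 samples: tuft-like cells had 169 and 163 CP10K and enteroendocrine-like cells 122 and 355. Neat1 was 0.762 ± 0.934 CP10K in progenitor-like cells, 8.68 ± 5.41 in enterocyte-like and 15.3 ± 4.07 in goblet-like cells, and 7.67 ± 2.23 in the unnamed cluster.

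**Figure D5:**
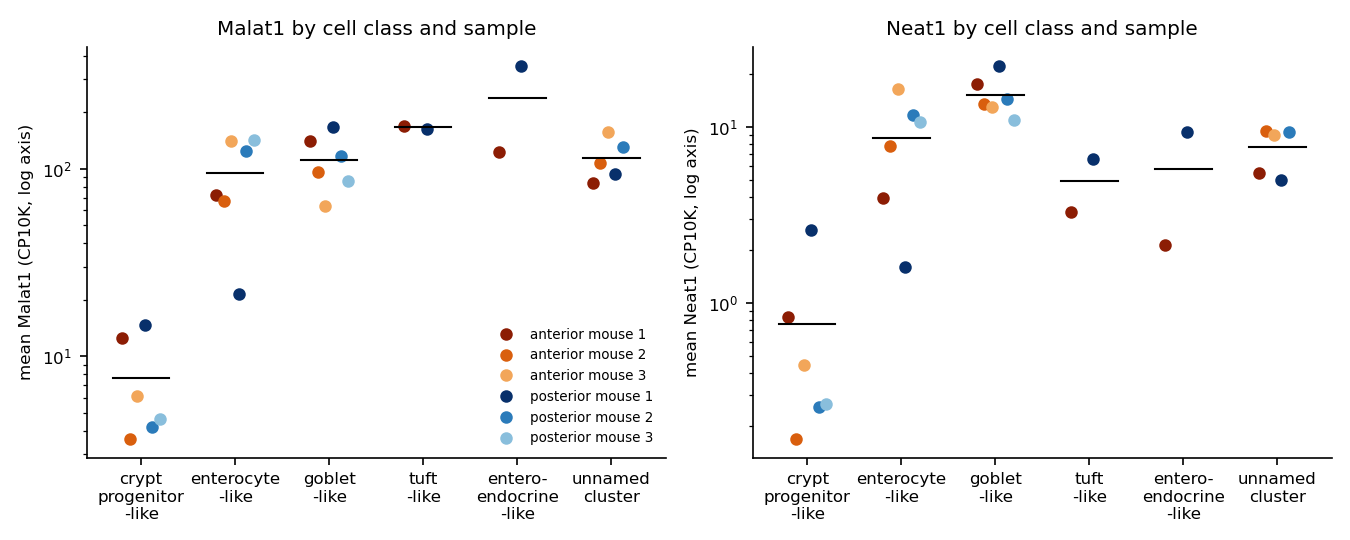
Mean Malat1 and Neat1 (CP10K, log axis) by cell class, with a point for each sample with at least 10 cells. Progenitor-like cells lie lowest for Malat1 (3.62 to 14.7 CP10K) and goblet-like cells at 63.6 to 167.

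Depth again split the classes. The goblet-like cells held a deep cluster with a median Malat1 of 6.45 CP10K and shallow clusters with 119 and 194 CP10K, and the enterocyte-like cells deep clusters with 3.02, 6.08 and 3.76 CP10K and a shallow one with 207. The progenitor-like cells, lowest in mean Malat1 as a class, were also nearly all deep (204 of 220 cells at 5000 UMIs or more). Their median of 5.72 CP10K lay within the range of these deep enterocyte-like and goblet-like clusters. The part of depth in the order of the classes was not tested. The ratio of Malat1 to Neat1 UMIs, which has no depth in its denominator, was 7.66 in goblet-like cells (range over samples 5.06 to 8.04), 10.3 in enterocyte-like (6.61 to 17.5) and 9.94 in progenitor-like cells (6.10 to 23.2), with overlapping samples. It was 26.2 in tuft-like cells (14.6 and 46.3 in the 2 samples) and 39.9 in enteroendocrine-like cells (40.5 and 42.2). The enteroendocrine ratio thus lay above every sample of the 3 large classes. In cells under 5000 UMIs it was 42.0 in enteroendocrine-like, 52.9 in tuft-like, 10.9 in enterocyte-like and 7.46 in goblet-like cells. With 2 samples a description is all that these allow.

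Of the 2 pools that stood apart, the one of anterior mouse 1, pool A of its second plate, had a median Malat1 of 2.76 CP10K, and 31 of its 84 cells (36.9%) had 0 Malat1 UMIs. Its depth was not low for its plate, with a median of 2825 UMIs. Among its 64 cells under 5000 UMIs the median was 6.89 CP10K, against 93.9 CP10K in the 92 such cells of the other pool of the plate. The pools of this plate thus differed in Malat1 at like depth. The depth and position contrasts without this pool were -4.92 and 2.75 for Malat1 and -3.87 and 2.47 for Neat1. The other, pool A of the first plate of posterior mouse 1, was high in its deep cells, of which 26 of 50 (52.0%) were at or above 30 CP10K, against at most 28.6% in any other pool. Their median Malat1 was 49.5 CP10K, and that of the deep cells of the other pools was 1.47 to 23.1. Of these 50 cells 25 were goblet-like, and 22 of the 44 deep goblet-like cells at or above the boundary came from this pool. Without this pool the depth and position contrasts of enterocyte-like cells were -4.86 and 2.86 for Malat1 and -3.90 and 2.39 for Neat1, and the depth contrast of goblet-like cells was -2.77 and -2.81.

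No difference between the regions was called for Malat1 or Neat1. Over all cells Malat1 was 96.0 ± 23.8 CP10K anteriorly and 127 ± 8.83 posteriorly (SD, n = 3), lower anteriorly in 3 of 3 mice (log2 -0.43, SE 0.51, limma adjusted p = 0.949), and the two-sided exact permutation test over samples gave p = 0.1, the smallest possible with 3 against 3 and 0.4 adjusted over 4 tests. Neat1 was 10.1 ± 2.45 and 11.7 ± 2.23 CP10K (log2 -0.23, limma adjusted p = 0.965, exact permutation p = 0.4). In enterocyte-like cells Malat1 was 72.2, 67.6 and 142 CP10K anteriorly and 21.5, 125 and 143 posteriorly, and the groups overlapped (log2 0.28, limma adjusted p = 0.994). Neat1 there was 9.37 ± 6.39 and 7.99 ± 5.56 CP10K (log2 0.41, limma adjusted p = 0.994). By limma 0% of genes were called in either set, 0 of 4963 in enterocyte-like cells (213 at an unadjusted p under 0.05) and 0 of 5195 in all cells (236). With the mouse as replicate block 3 and 17 genes were called, without Malat1 (limma adjusted p = 0.884 and 0.498) and Neat1 (0.759 and 0.699) among them.

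The depth and position contrasts were also compared between the regions. For depth the anterior minus posterior difference was 0.00 for Malat1 and -0.53 for Neat1 on the log2 scale, and for position it was -0.06 and 0.48, and limma called 0% of genes in both (182 and 209 at an unadjusted p under 0.05). The wells also carry a sort marker label, positive or negative, whose antigen the labels do not name. Between marker-positive and marker-negative enterocyte-like cells Malat1 differed by -0.05 and Neat1 by 0.29 on the log2 scale (limma adjusted p for Neat1 = 0.933), with 0% of 4977 genes called (259 at an unadjusted p under 0.05).

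The genes most like Malat1 over 27 means of a class in a sample, of 1778 genes compared, were Gm42726 (Pearson r = 0.96), Gm37376 (0.94), Srrm2 (0.92), Neat1 (0.89) and Gm10801 (0.88). Gm37376 lies inside Malat1 on the opposite strand, so its reads may be reads of Malat1. The genes most like Neat1 were Malat1 (0.89), Rrbp1 (0.85), Srrm2 (0.85), Gm42726 (0.84) and Zbtb7a (0.83). Rrbp1 encodes a ribosome-binding protein of the endoplasmic reticulum, and Zbtb7a a transcriptional repressor. The means share samples, depth and cells, so these coefficients describe likeness within these libraries. Over depth in enterocyte-like cells Gm42726 fell by 4.57 and Gm37376 fell by 4.03 on the log2 scale. No p-value is given for them, since they were picked from these same cells for their likeness to Malat1.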

How the data were processed

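Per the labels' protocols, MARS-seq libraries were made from sorted cells. Per the submitters' processing notes the tools were bcl2fastq, STAR 2.6.1b, R 3.5.1, cutadapt 1.18 and UMI-tools 1.0.0 (GRCm38/mm10). Filters are not given in the sources used here. The authors deposited 1 table per region of log2 values corrected per gene. Undoing the log2 and the correction gave whole UMI counts for 100% of values at a tolerance of 0.01 (6675215 anterior and 6573443 posterior UMIs). A deposited plate table maps wells to sort labels, and 0 columns could not be mapped to a sample. The 72 wells of 0 cells and 36 of 10 cells were not analysed here.

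Levels are CP10K over the 5674 shared genes (5000 or more UMIs counted as deep). Clusters (scanpy 1.11.5, 1500 variable genes, 25 components, 15 neighbours, Leiden resolution 1) were named from markers. Cells were called doublets by no tool, so doublets remain. Contrasts used limma 3.58.1 (R 4.3.3; Python 3.11.15) with a trend on log2(mean CP10K + 0.2) per sample and tercile (a group of 1 in 3 cells), a minimum gene mean of 0.2 CP10K, Benjamini-Hochberg over all genes, threshold 0.05, tested on simulated data. Each SE of a log2 change is the moderated one of limma and does not measure the spread over samples. Fold changes on this scale understate the change of low genes. Terciles needed 30 cells per sample. Both regions came from the same mice: deviations of same-mouse samples from the region means correlated at 0.690, 0.285 and 0.299 over 5195 genes, and other pairs at -0.472 to 0.268. The genes, lists and tests were chosen with earlier results of these data known. Named genes were the members, the 5 most alike, and of each list the 3 most abundant and up to 5 called; 1 gene so named is not reported here. Sequences are GENCODE vM21 transcripts and RefSeq's mascRNA on GRCm38.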

Additional observations from a re-analysis of the deposited data

How the results depend on the processing

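Malat1 and Neat1 were chosen on these cells, so where their depth and position contrasts stand to the threshold of limma is no test. This holds for both classes and on both sides of 5000 UMIs. It describes only how the fits depend on their settings. Malat1 and Neat1 kept their direction with depth and with villus position in enterocyte-like cells under every alternative run, and were under the threshold except Neat1 with Apoa4 alone as the score (1.3045). Leaving out 1 replicate gave -5.33 to -4.68 (Malat1) and -4.55 to -3.59 (Neat1) for depth, and 2.53 to 2.95 and 2.10 to 2.85 for position. Called genes for depth were 562 with no replicate block and 513 to 1361 by left-out replicate (513, 582 and 590 without anterior 3, posterior 2 and posterior 3); for position 679 with no replicate block, 530 thinned to 1000 UMIs, 452 with Apoa4 alone and 754 (without anterior 3) to 1202. Region differences in enterocyte-like cells had no fixed sign: -0.59 to 0.76 for Malat1 and -0.48 to 0.90 for Neat1 by left-out replicate, and -0.014 for Malat1 with the unnamed cluster included. Pairing the samples by mouse as replicate block raised the called genes to 3 (enterocyte-like) and 17 (all cells), and leaving out a replicate gave 0 to 1 in all cells; pairing changed no call of Malat1 or Neat1. In goblet-like cells Malat1 did not pass without the 20 most abundant genes (-2.23), with no replicate block (-2.61) or with the cells split in 2 parts (-1.35), and ranged from -3.68 to -0.77; Neat1 did not pass at a pseudocount of 0.05 (-3.09) or 1 (-1.94), without the 20 genes (-2.57), with no block (-2.64) or with the cells split in 2 parts (-1.17), and ranged from -3.82 to -0.60. Called genes there were 14, 20, 109 (summed UMIs), 14, 3 and 3 in that order of settings, and 8 to 64 by left-out replicate. The regional difference of the depth contrast for Malat1 was -0.0081 (pseudocount 1), -0.037 (summed UMIs), -0.013 (without the 20 genes) and -0.68 to 1.04 by left-out replicate, and -1.38 to 1.02 for Neat1; that of the position contrast was 0.20 for Malat1 (summed UMIs), -0.56 to 0.51 and, for Neat1, -0.51 to 1.38. The marker difference of Malat1 was 0.16 (summed UMIs) and -0.23 to 0.32. The settings by depth were chosen after seeing the data. At 5000 UMIs and above, position did not pass with no replicate block for Malat1 (1.21) or Neat1 (1.08), nor for Neat1 from summed UMIs (0.89) or without 4 of the replicates in turn (0.88 to 1.31 over all 6), and called genes were 303 with no block and 485 to 772. Below 5000 UMIs Malat1 did not pass at a pseudocount of 0.05 (0.40) or 1 (0.40), with no filter (0.40) or no block (0.40), and ranged from 0.22 to 0.56; called genes were 12, 10, 8, 5, 34 (summed UMIs) and 9 to 26. Thinning moved the unnamed cluster to 81.0 (Malat1) and 5.37 CP10K (Neat1), leaving out its 85 cells under 1000 UMIs. The cause of these changes was not tested. A contrast by mitochondrial share was not run, as the tables hold 0 such genes.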
